A study of Mus musculus with 12 samples.

Results

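Chromatin accessibility was compared between the interscapular brown fat (BAT) and the inguinal white fat (iWAT) of flox mice, taking the 6 flox samples of the 12 samples of the series. Each BAT peak was paired with the iWAT peak that it overlapped longest, by at least 1 bp, so that 31487 of the 58558 BAT peaks (53.8%) and 31391 of the 39558 iWAT peaks (79.4%) entered as members, and 94 iWAT peaks served more than 1 BAT peak. The remaining 27071 BAT peaks had no partner and are not compared. The flox BAT samples came from 3 C57BL/6 mice carrying loxP sites in both copies of the BAF60a gene (Smarcd1) and no Cre, littermate controls of the adipocyte-specific knockout, with the tissue of 1 mouse in each sample. Their age and housing temperature are not given in the sources used here. The flox iWAT samples were 3 aliquots of a single tissue pool, minced together from the fat pads of 6 flox mice aged 6 to 8 months. These mice had been cold-acclimated, with the temperature lowered day by day to 10 °C and then held there for 7 days. The aliquots are technical repeats, so that p-values rest on the spread of the 3 BAT mice, and the inguinal sample was taken to vary as they do. Tissue, cold acclimation, pooling and sequencing set-up differ together between the groups and cannot be told apart. In bulk tissue, fewer cells of a type and less accessibility per cell also cannot be told apart.

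Brown adipocytes burn fatty acids in mitochondria uncoupled by UCP1, under a programme driven by PPAR and ERR nuclear receptors and their PGC-1 coactivators. Inguinal fat is a subcutaneous depot of mostly white adipocytes that store triglyceride, in which beige adipocytes with UCP1 arise in the cold. ATAC-seq cuts DNA with the transposase Tn5 wherever nucleosomes leave it exposed, so that a peak marks an open promoter or enhancer, and depots that express different genes open different enhancers. The adipogenic programme common to both depots is run by PPARγ and C/EBP factors. AP-1, a dimer of FOS and JUN proteins, binds enhancers in many cell types.

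The sequences of 8 pairs are shown for 2 runs of letters whose share differed between the depots. The 4 windows that follow were more open in flox BAT and hold AAGGTCA, the extended half-site bound by ERR and other nuclear receptors, on either strand. Each is 200 bases of GRCm38 (mm10), plus strand, centred on the overlap of the paired peaks, with the match in capitals. The windows lie near Ppara, which encodes the fatty acid-sensing receptor PPARα (-10938 bp from the start site, chr15:85724623-85724822), near Slc16a1, which encodes a lactate transporter (31593 bp, chr3:104670147-104670346), at the start site of Atp5g3, a subunit of ATP synthase (308 bp, chr2:73910960-73911159), and inside Pparg (48332 bp, chr6:115470449-115470648). They were picked for showing the match, after the values were known.
Ppara: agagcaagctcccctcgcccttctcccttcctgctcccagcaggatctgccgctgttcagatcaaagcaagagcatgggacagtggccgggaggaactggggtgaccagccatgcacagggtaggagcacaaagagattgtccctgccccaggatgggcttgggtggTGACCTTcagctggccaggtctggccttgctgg
Slc16a1: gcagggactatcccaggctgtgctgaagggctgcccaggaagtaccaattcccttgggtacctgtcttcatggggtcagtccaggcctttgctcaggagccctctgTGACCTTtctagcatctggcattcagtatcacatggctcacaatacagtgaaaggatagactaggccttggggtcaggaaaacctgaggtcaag
Atp5g3: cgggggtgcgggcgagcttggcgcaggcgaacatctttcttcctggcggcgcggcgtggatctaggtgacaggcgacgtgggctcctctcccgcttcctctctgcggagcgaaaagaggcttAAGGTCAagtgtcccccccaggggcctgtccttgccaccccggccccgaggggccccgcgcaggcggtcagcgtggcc
Pparg: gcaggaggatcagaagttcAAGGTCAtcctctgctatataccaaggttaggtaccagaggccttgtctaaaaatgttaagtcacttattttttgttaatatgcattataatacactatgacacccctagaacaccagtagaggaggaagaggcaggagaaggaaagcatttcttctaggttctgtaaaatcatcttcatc

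The next 4 windows were more open in flox iWAT and hold TGACTCA, the AP-1 consensus, shown in capitals. They lie near Slc41a3 (-21979 bp, chr6:90582602-90582801), a gene of the magnesium transporter family, in an intron of Gfpt2 (17177 bp, chr11:49811233-49811432), an enzyme of hexosamine synthesis, in an intron of Col18a1 (24226 bp, chr10:77089379-77089578), the chain of collagen XVIII, and upstream of Ebf2 (-30074 bp, chr14:67203182-67203381), a transcription factor of the brown lineage.
Slc41a3: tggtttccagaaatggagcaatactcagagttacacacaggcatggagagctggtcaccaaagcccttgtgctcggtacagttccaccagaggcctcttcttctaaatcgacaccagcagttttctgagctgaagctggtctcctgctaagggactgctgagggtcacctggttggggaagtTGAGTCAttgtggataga
Gfpt2: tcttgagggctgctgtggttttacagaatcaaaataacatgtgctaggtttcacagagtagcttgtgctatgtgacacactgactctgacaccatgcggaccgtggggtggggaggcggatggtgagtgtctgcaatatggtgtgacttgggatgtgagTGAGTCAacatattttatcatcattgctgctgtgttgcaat
Col18a1: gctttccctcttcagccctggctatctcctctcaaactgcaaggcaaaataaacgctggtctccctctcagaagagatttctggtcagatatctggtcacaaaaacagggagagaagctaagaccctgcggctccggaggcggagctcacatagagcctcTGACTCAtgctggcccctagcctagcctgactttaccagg
Ebf2: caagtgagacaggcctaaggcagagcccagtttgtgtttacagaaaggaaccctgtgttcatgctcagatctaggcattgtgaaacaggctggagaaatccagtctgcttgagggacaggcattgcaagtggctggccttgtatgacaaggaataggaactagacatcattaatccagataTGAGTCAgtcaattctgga

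The reads in paired peaks numbered 22535818, 14499287 and 8022366 in the BAT mice and 6195381, 3904723 and 5059060 in the iWAT aliquots, so that low inguinal values carry more counting error. Read density is given as reads per kb of that tissue's own peak scaled to the reads in paired peaks of the sample (the unit known as RPKM), and its median over all pairs and samples was 36.6. Within-sample ranks of the pairs gave Spearman correlations of 0.907 to 0.945 among the BAT mice, 0.845 to 0.894 among the iWAT aliquots and 0.579 to 0.675 between the tissues. These are correlations across pairs that share depth and peak boundaries, and are given as a description.

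The zero of the comparison depended on the scaling. BAT peaks were the wider of the pair in 79.6% of pairs, with a median width of 690 bp against 507 bp, and the median log2 difference (BAT minus iWAT) was -0.50 when density was taken over total reads. By limma, with a pair called at an adjusted p under 0.1 and at least a 2-fold difference, 474 pairs were higher in flox BAT (1.51% of the pairs tested) and 5202 were higher in flox iWAT (16.5%), so that 8.35% of the calls were on the brown side. After TMM scaling, which puts the median pair at -0.02, the calls were 1874 (5.95%) and 1140 (3.62%), with 62.2% on the brown side. Without the division by peak width they were 3842 and 3838 (12.2% each). Every mouse lay above every aliquot in 9.35% of pairs and below every aliquot in 57.1%. The split of all pairs between the depots is therefore not read as a result, and the text turns to pairs that were called in the same direction under each of 5 scalings (total reads, TMM, DESeq2 size factors, quantile and no division by width), a rule added after the values were seen. There were 406 such pairs higher in flox BAT (1.29%), nearest to 362 genes, and 530 higher in flox iWAT (1.68%), nearest to 494 genes. With the second BAT mouse left out none of these pairs was called by limma (407 and 655 pairs at an unadjusted p under 0.05). Without the first mouse 408 and 460 were called, and without the third 422 and 775. Passing the adjusted p threshold under all 5 scalings therefore depended on the second mouse. The median log2 difference over all pairs and total reads was -0.51 without that mouse and -0.50 with it. Differences are given as log2, BAT minus iWAT, over total reads with the SE of limma, and the adjusted p of the named pairs that were called under 5 scalings ran from 0.0306 to 0.0622.

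**Figure D1:**
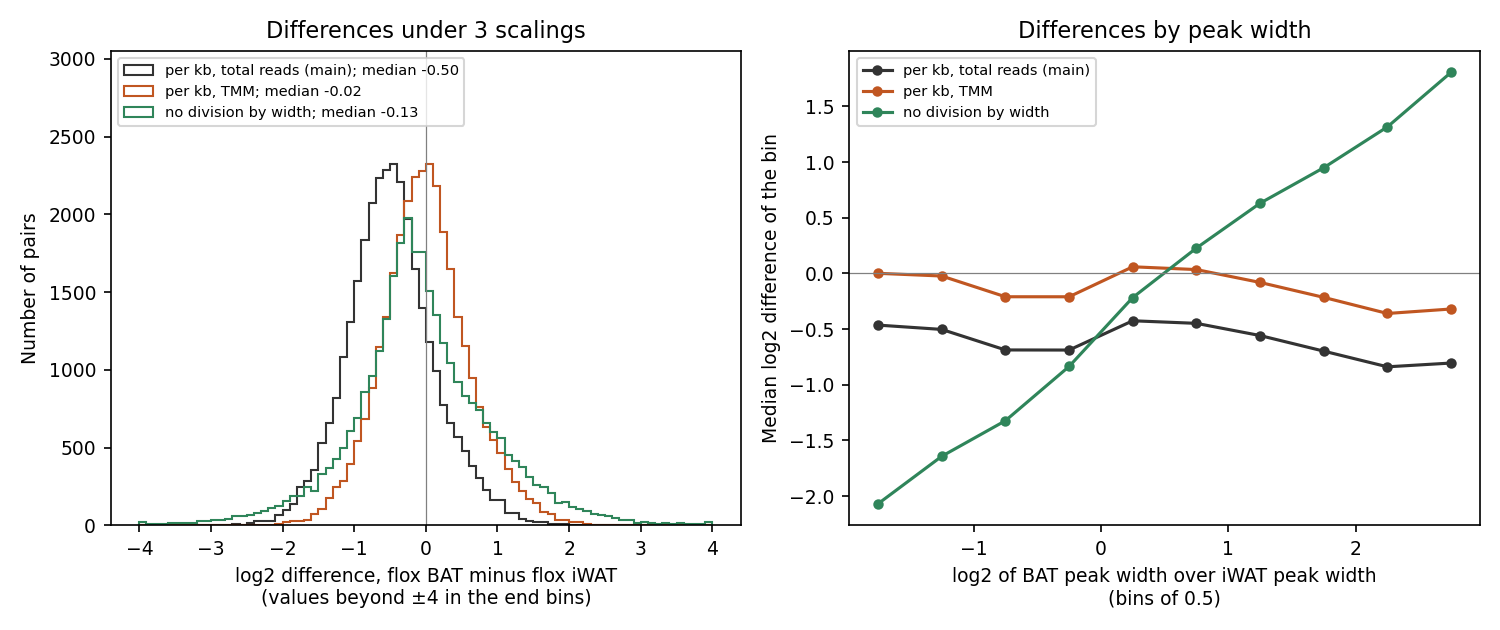
The left panel counts the 31487 pairs by log2 difference (flox BAT minus flox iWAT) under 3 scalings, and the right panel plots the median difference in bins of the log2 ratio of peak widths. The medians lie at -0.50 for density over total reads, -0.02 for TMM and -0.13 without division by width, and only the curve without division by width climbs with the width ratio.

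The pairs that were more open in 1 depot lay mostly away from start sites. Of the 20128 distal pairs, those with a BAT peak midpoint over 1 kb from a start site, 387 (1.92%) were higher in flox BAT and 394 (1.96%) in flox iWAT under 5 scalings. Of the 11359 promoter pairs, 19 (0.167%) and 136 (1.2%) were. Introns held 53.7% of the brown pairs and 47.7% of the inguinal pairs, against 43.2% of all pairs. In the brown pairs the median read density was 68.2 in BAT and 28.1 in iWAT, and in the inguinal pairs it was 14.2 and 50.7, so that the inguinal pairs were thinly read in BAT. The brown pairs had a median GC content of 51.8% and the inguinal pairs of 55.6%, beside 54.9% over all pairs. Genes with 2 or more such pairs numbered 35 on the brown side and 32 on the inguinal side, and 10 genes held pairs of both directions.

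Thermogenic genes held more pairs that were higher in flox BAT than in flox iWAT. Of the 30 genes on the list 28 had a pair, with 85 of their 232 BAT peaks paired, and 21 pairs (24.7%) were higher in flox BAT under 5 scalings while 1 was higher in flox iWAT, beside 1.29% and 1.68% of all pairs. By density over total reads 23 pairs rose in flox BAT and 5 in flox iWAT, and after TMM 38 and 2. The median log2 difference of the list was 0.30 over total reads, 0.78 after TMM and 1.19 without division by width, each above the median of all pairs. The mean density over the list was 53.5 to 55.3 in the BAT mice and 36.6 to 40.6 in the iWAT aliquots, whereas over all pairs it was 36.2 to 37.0 in BAT and 48.3 to 49.1 in iWAT. The 21 pairs belonged to 12 genes: Pdk4, Dio2, Ppargc1b, Cidea, Ppargc1a, Ppara, Otop1, Kcnk3, Esrrg, Nrg4, Slc27a2 and Acot11. The exception lay in an intron of Exoc2 and is assigned to Irf4, a transcription factor of the cold response, at 98990 bp, with a log2 difference of -1.67 ± 0.36 (SE).

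Coactivators and receptors of the programme are described first. At the pair -10938 bp from Ppara the density was 147, 154 and 133 in the BAT mice and 31.6, 24.6 and 27.6 in the iWAT aliquots. All 3 mice lay far above all 3 aliquots, at a percentile of at least 99.6 within each BAT sample and of at most 29.7 within each iWAT sample, and the log2 difference was 2.30 ± 0.19 (SE, limma adjusted p = 0.0306). The counts behind it were 4233, 2840 and 1356 reads in BAT and 143, 70 and 102 in iWAT. A neighbouring pair in the same intergenic stretch, assigned to the microRNA gene Mirlet7b at 13336 bp, differed by 2.08 ± 0.19, and both belong to 1 locus. Ppargc1b, which encodes the coactivator PGC-1β, held 8 pairs, of which 3 were higher in flox BAT under 5 scalings. Its strongest pair, -37868 bp from the start site, had 141, 154 and 156 in BAT and 37.5, 34.5 and 36.3 in iWAT, with tight values on each side (2.02 ± 0.18, adjusted p = 0.0306). A pair about as strong lay close by, assigned to A530050N04Rik (2.23 ± 0.22). Ppargc1a, the gene of PGC-1α, had only 4 of its 33 BAT peaks paired, and 2 of the 4 were called, both over 200 kb from the start site (1.05 ± 0.18 and 1.04 ± 0.25). Esrrg, the gene of the orphan receptor ERRγ, was higher at its start site by 1.10 ± 0.18. Over total reads 1 of the 6 Esrrg pairs was called higher in flox BAT and 1 in flox iWAT, and after TMM 3 and 1.

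Effector genes of heat production followed. At the start site of Cidea, a lipid droplet protein abundant in brown fat, the density was 105, 94.1 and 71.6 in BAT and 26.3, 20.7 and 26.1 in iWAT. The mice spread more widely than the aliquots but did not meet them, and the difference was 1.81 ± 0.27 (adjusted p = 0.0306). A second Cidea pair, at -14613 bp, differed by 1.68 ± 0.18, and the other two were higher in BAT by 1.16 and 0.88 without being called under all 5 scalings. Otop1, a proton channel gene used as a brown fat marker, gave 66.8, 70.8 and 69.8 in BAT against 20.7, 18 and 23.1 in iWAT in an exon near its start site, with a narrow spread in both tissues (1.68 ± 0.17). Kcnk3, which encodes a background potassium channel of brown adipocytes, had 96.0, 87.8 and 79.1 against 31.8, 32.5 and 35.6 at its start site (1.37 ± 0.20). The groups stayed apart at both genes.

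Dio2 makes the deiodinase that activates thyroid hormone inside brown adipocytes. Of its 5 pairs 3 were higher in flox BAT under 5 scalings, all in the intergenic stretch downstream, and the strongest, at 94902 bp, gave 69.4, 112 and 102 in BAT and 31.5, 35.9 and 22.7 in iWAT (1.61 ± 0.31, adjusted p = 0.0334). The first mouse was the lowest of the BAT samples there, although still above every aliquot. Pdk4 encodes the kinase that shuts pyruvate dehydrogenase and so turns the cell towards fatty acids, and 4 of its 6 pairs were called. Its start site was open in both depots, with 169, 157 and 149 in BAT and 86.8, 60.5 and 78.8 in iWAT (1.02 ± 0.18), whereas a pair at 14426 bp gave 50.5, 37.5 and 61.5 against 13.0, 4.66 and 16.4 (1.94 ± 0.31). Another Pdk4 pair, at 24400 bp, was lower in BAT by density (-1.07) and higher without the division by width (1.71), and has no direction. Nrg4, a secreted growth factor of brown fat, was higher in an intron, with 131, 121 and 115 against 63.8, 43.7 and 56.0 (1.11 ± 0.18).

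Ucp1 could hardly be compared in this way. Only 3 of its 12 BAT peaks had a partner, since its iWAT peaks numbered 3, and the BAT peak at the start site was among those without one. The pair at -29663 bp gave 43.7, 48.5 and 38.8 in BAT and 19.9, 23.1 and 24.7 in iWAT (0.93 ± 0.20), under the 2-fold minimum. The pair at -11429 bp differed by 0.65 ± 0.23 and the one at 19714 bp by -0.61 ± 0.20, which turned to 0.10 without division by width. After TMM the first and the second were called in favour of flox BAT. Zic1, a marker of interscapular brown fat, had a single pair of 5 BAT peaks, with a difference of -1.37 that was not called after TMM (-0.89). The start-site peak of Zic1 in BAT had no partner. Adipoq, the adiponectin gene that marks adipocytes of any depot, had 2 pairs at -1.31 and -0.77, neither of which was called.

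**Figure D2:**
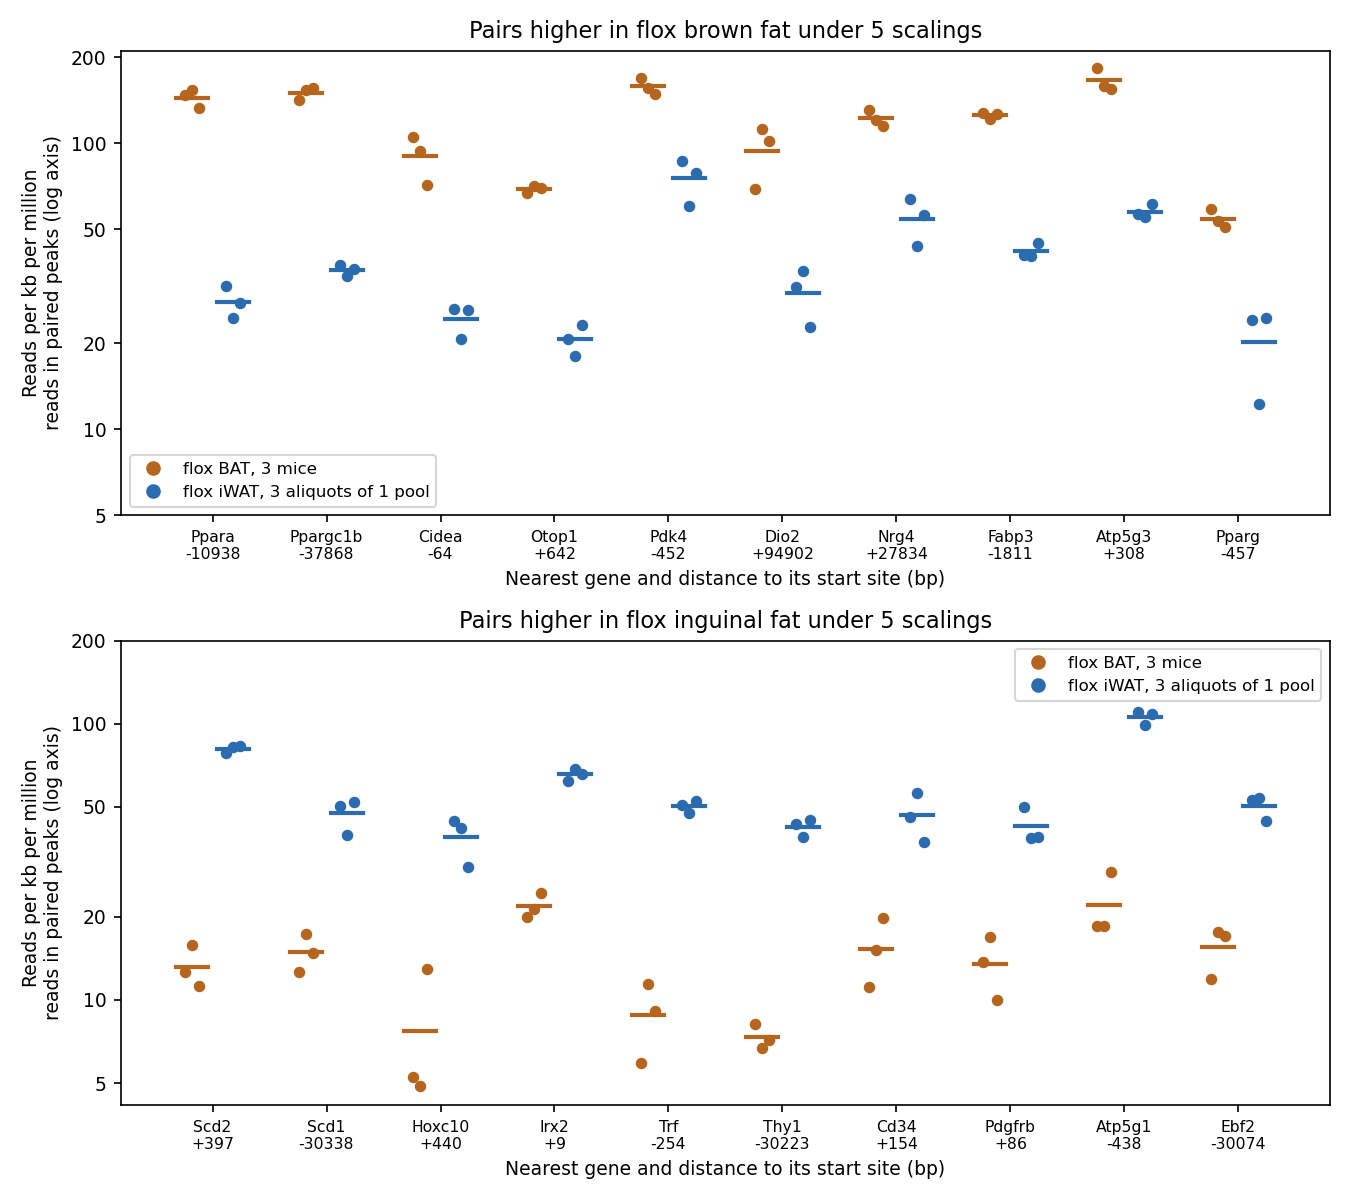
Read density (RPKM over reads in paired peaks, log axis) of 20 pairs called under 5 scalings in each of the 3 flox BAT mice and the 3 flox iWAT aliquots, with lines at the means. In the upper panel every mouse lies above every aliquot, as at Ppara (133 to 154 against 24.6 to 31.6), and in the lower panel every aliquot lies above every mouse, as at Scd2 (78.3 to 83.2 against 11.2 to 15.8).

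The gene-by-gene ranking on the brown side, 1 pair per gene, was led by Suclg1, which encodes a subunit of the mitochondrial succinyl-CoA ligase. Its pair, 31876 bp from the start site, gave 80.5, 88.1 and 93.1 in BAT and 15.5, 11.2 and 18.6 in iWAT, a mean 5.78 times higher (2.42 ± 0.19, adjusted p = 0.0306). Ppara, A530050N04Rik, Mgst2, Clic5, Mirlet7b, Cerkl, Arhgef10l, Ppargc1b and Parm1 made up the rest of the 10, with differences of 1.99 to 2.30, and all 10 were called under 5 scalings. The Mgst2 pair lies in an intron of Maml3 (75.3, 88.8 and 79.2 in BAT, 16.1, 17.9 and 16.8 in iWAT). Clic5, a gene of the chloride intracellular channel family, gave 52.9, 59.4 and 61.1 against 8.88, 8.96 and 18.8.

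Among fatty acid oxidation genes 2 of 38 pairs (5.26%) were higher in flox BAT under 5 scalings while none was higher in flox iWAT, beside 1.29% and 1.68% of all pairs. By limma over total reads 2 pairs were called in each direction, after TMM 9 (23.7%, beside 5.95% of all pairs) and 0, and without division by width 16 (42.1%, beside 12.2%) and 0. The pairs called under 5 scalings both lay at Fabp3, the fatty acid-binding protein of muscle and brown fat. The pair -1811 bp from its start site gave 128, 121 and 127 in BAT and 40.7, 40.5 and 44.8 in iWAT, with little scatter in either tissue (1.55 ± 0.17). Among 88 pairs of oxidative phosphorylation genes 1 was higher in each depot (1.14%, near the share of all pairs), and these were paralogues that encode the same c-subunit of ATP synthase. At the start site of Atp5g3 the density was 184, 159 and 155 in BAT and 56.5, 55.2 and 61.3 in iWAT (1.50 ± 0.19). At that of Atp5g1 it was 18.5, 18.5 and 29.1 in BAT and 111, 98.9 and 109 in iWAT (-2.26 ± 0.31, adjusted p = 0.0306). Both start sites were open in both tissues, in opposite order. The mean density over the whole list was 44.9 to 49.7 in BAT and 54.4 to 54.6 in iWAT, and its median log2 difference was -0.33 over total reads and 0.16 after TMM.

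Among fatty acid synthesis genes the pairs called under 5 scalings lay at Acacb, Scd1 and Scd2. Acacb, which makes the malonyl-CoA that restrains mitochondrial uptake of fatty acids, had 2 of its 4 pairs higher in flox BAT, both intronic (1.28 ± 0.24 and 1.01 ± 0.23). The stearoyl-CoA desaturase genes Scd1 and Scd2, which make monounsaturated fatty acids, had 3 pairs higher in flox iWAT. They were 2 of the 3 pairs of Scd2 and 1 of the 9 pairs of Scd1. The median over the Scd1 pairs was -0.05 over total reads and 0.43 after TMM. At the start site of Scd2 the values were 12.6, 15.8 and 11.2 in BAT and 78.3, 82.4 and 83.2 in iWAT (-2.54 ± 0.24, adjusted p = 0.0306), and a second Scd2 pair, at -26480 bp, differed by -1.88 ± 0.21. The Scd1 pair at -30338 bp gave 12.7, 17.3 and 14.8 against 50.4, 39.7 and 52.0 (-1.64 ± 0.23). Every aliquot exceeded every mouse at the 3 desaturase pairs. The list as a whole, 66 pairs of 16 genes, had 3.03% brown and 4.55% inguinal calls under 5 scalings, beside 1.29% and 1.68% of all pairs. Its medians were -0.38 over total reads, 0.10 after TMM and 0.28 without division by width, beside -0.50, -0.02 and -0.13 for all pairs. Each was above the median of all pairs, while the calls went in both directions.

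General adipocyte genes had 2 of 103 pairs (1.94%) higher in flox BAT under 5 scalings, near the 1.29% of all pairs, and none in flox iWAT. After TMM limma called 28 (27.2%, beside 5.95% of all pairs) and 0, and over total reads 4 (3.88%, beside 1.51%) and 8 (7.77%, beside 16.5%). The 2 pairs lay at Acsl1, an acyl-CoA synthetase (63.9, 72.8 and 58.5 against 22.5, 23.4 and 27.6), and at Aqp7, the glycerol channel of adipocytes (92.2, 121 and 101 against 51.9, 35.3 and 38.9). The median of the list was 0.07 over total reads, 0.55 after TMM and 0.80 without division by width. Cfd, the gene of the adipokine adipsin, had both its pairs higher in flox iWAT by density (-1.47 ± 0.20 and -1.06 ± 0.19), neither was called after TMM (-0.98 and -0.57), and the second turned to 0.50 without division by width. At the start site of Pck1, an enzyme of glyceroneogenesis, the density was 126, 121 and 111 in BAT and 74.2, 46.4 and 63.7 in iWAT (0.90 ± 0.18). Dgat2, which makes triglyceride, had no called pair over total reads, with 111, 106 and 112 against 94.9, 73.4 and 105 at its start site (0.24 ± 0.17).

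Of 182 pairs of adipogenic transcription factor genes, 9 (4.95%) were higher in flox BAT and 2 (1.1%) in flox iWAT under 5 scalings, beside 1.29% and 1.68% of all pairs. After TMM the calls were 20 (11%, beside 5.95%) and 7 (3.85%, beside 3.62%), and over total reads 10 (5.49%, beside 1.51%) and 31 (17%, beside 16.5%), with more on the inguinal side. Nfia, a factor of the brown programme, held 4 of the 9 among its 24 pairs, and the pair at -17069 bp gave 85.5, 86.8 and 85.7 in BAT and 29.9, 40.5 and 26.6 in iWAT (1.42 ± 0.17). Pparg, the master regulator of fat cells, had 6 of its 21 BAT peaks paired. The pair -457 bp from the nearest of its start sites gave 58.8, 53.5 and 50.9 in BAT and 24, 12.3 and 24.4 in iWAT (1.32 ± 0.19), and an intronic pair at 48332 bp differed by 1.35 ± 0.22, while the pair at its other start site differed by 0.64 ± 0.17. Single pairs of Ebf1, Hlf and Nr3c1 were also higher in flox BAT, by 1.04 to 1.06. Nfix (15.9, 20.4 and 20.1 against 52.5, 58.7 and 53.3) and Rxra, the partner receptor of PPARγ (42.0, 41.7 and 33.4 against 110, 134 and 105), had the intronic pairs that were higher in flox iWAT, at -1.49 ± 0.22 and -1.54 ± 0.21.

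The lists named for a depot held 1 to 3 such pairs each, to be read beside 1.29% of all pairs on the brown side and 1.68% on the inguinal side. Brown depot identity genes had 2 of 42 pairs (4.76%) higher in flox BAT, both in introns of the neurotrophin receptor gene Ntrk3 (1.51 ± 0.17 and 1.92 ± 0.22), and 1 higher in flox iWAT, at Ebf2 (11.9, 17.6 and 17.1 against 52.8, 53.9 and 44.3, -1.65 ± 0.27). Beige marker genes had 1 of 24 (4.17%), the Aqp7 pair given above. White and inguinal depot genes had 1 of 84 (1.19%) higher in flox iWAT, at the start site of the homeobox gene Irx2, with 20, 21.3 and 24.4 in BAT and 62.1, 68.5 and 66.0 in iWAT (-1.53 ± 0.20). HOX genes, which record position along the body axis, had 1 of 25 (4%) higher in flox iWAT, at Hoxc10, a gene of the posterior body. Its values were 5.28, 4.87 and 13.0 in BAT and 44.5, 42.1 and 30.3 in iWAT (-2.32 ± 0.53, adjusted p = 0.0397), with the third mouse above the other two. The start site of the subcutaneous patterning gene Tbx15 gave 11.5, 12.3 and 14.5 against 42.3, 52.5 and 41.9 (-1.74 ± 0.21), but fell under the 2-fold minimum without division by width (-0.90). The medians of the brown identity and beige lists were -0.37 and -0.23 over total reads, and 0.38 and 0.29 without division by width. Those of the white and inguinal list were -0.34 and -0.07. All 3 lists thus lay above all pairs, which had -0.50 and -0.13. HOX genes lay below all pairs over total reads (-0.64) and above them without division by width (0.16).

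On the inguinal side the ranking by size over total reads could not be used as it stood. In 9 of the 10 leading genes, Srebf2 and Gpr158 first, the iWAT peak was at most 25 bp wide and the direction turned without division by width, and only Slc41a3 was kept under 5 scalings. Its pair, in an intron of Aldh1l1, gave 5.50, 7.18 and 12.1 in BAT and 57.0, 65.6 and 56.8 in iWAT (-2.76 ± 0.41, adjusted p = 0.0306). In the ranking by the smallest difference over 5 scalings the leaders besides Scd2 and Slc41a3 included 9630028H03Rik, Timp2, Nynrin, Gm15412, Lrrtm1, Mitf and Arsi, with differences of -2.44 to -2.64 over total reads. Timp2, an inhibitor of matrix metalloproteinases, had 4.71, 9.25 and 9.77 in BAT and 53.4, 54.6 and 43.7 in iWAT. Mitf, a basic helix-loop-helix factor, had 7.60, 9.39 and 9.70 against 58.8, 43.2 and 53.2 in an intron. Trf, the gene of the iron carrier transferrin, had 5.90, 11.5 and 9.15 against 50.9, 47.6 and 52.4 at its start site (-2.43 ± 0.36). At these 4 pairs no mouse exceeded 12.1 and no aliquot was under 43.2.

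Markers of other cells of the tissue were read in the same way. Fibroblast and preadipocyte markers had 2 of 20 pairs (10%, beside 1.68% of all pairs) higher in flox iWAT under 5 scalings and none in flox BAT (8 and 0 over total reads, 4 and 1 after TMM). They were Thy1, a surface protein of stromal cells, with 8.21, 6.68 and 7.14 in BAT and 43.5, 38.7 and 44.9 in iWAT (-2.39 ± 0.19), and Cd34, the progenitor marker, with 11.1, 15.1 and 19.8 against 46.1, 56.3 and 37.5 at its start site (-1.55 ± 0.33). The median of the list was -0.83 over total reads, -0.35 after TMM and -0.90 without division by width, and its mean density was 21.6 to 26.8 in BAT and 38.9 to 40.2 in iWAT. Pdgfrb, the receptor that marks mural cells and preadipocytes, had 13.7, 16.9 and 10 against 49.8, 38.7 and 38.9 at its start site (-1.64 ± 0.31), 1 of 15 pairs of mural markers. Over total reads 2 mural pairs were called higher in flox iWAT and 0 in flox BAT, and after TMM 1 and 2. The mural medians were -0.48 over total reads, 0.01 after TMM and 0.05 without division by width, beside -0.50, -0.02 and -0.13 for all pairs. Endothelial, macrophage, Schwann and epithelial markers had no pair called under 5 scalings. Over total reads limma called 2 of 19, 2 of 7, 5 of 17 and 3 of 15 of their pairs higher in flox iWAT, beside 16.5% of all pairs, and none higher in flox BAT. After TMM it called 2 of the 19 endothelial and 1 of the 7 macrophage pairs higher in flox iWAT, beside 3.62% of all pairs. It then called no Schwann or epithelial pair, and none of the 4 lists had a pair higher in flox BAT. Their medians after TMM were -0.19, -0.33, -0.06 and -0.18, beside -0.02 for all pairs. Without division by width they were -0.37, -0.19, 0.04 and -0.03, beside -0.13. Under 5 scalings lymphocyte markers had 1 pair in each direction of 4, at Cd28 (1.30) and Cd2 (-1.53), and skeletal muscle markers 1 of 4 higher in flox BAT, near Myog (1.57). By the median, the fibroblast, endothelial and macrophage lists lay below all pairs over total reads, after TMM and without division by width. The lymphocyte and muscle lists, of 4 pairs each, also lay below under these 3 scalings. Schwann and epithelial lists lay below over total reads and after TMM but not without division by width. The mural list lay below under none of the 3. What part these cells had in the pairs of other genes that were higher in flox iWAT was not tested.

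Clock genes, ribosomal protein genes and the genes of UCP1-independent heat cycles served as groups with no depot in their name. None of the 67 clock pairs and none of the 20 futile cycle pairs was called under 5 scalings, which at 1.29% and 1.68% of all pairs is near the background for lists of this size. Over total reads limma called 8 (11.9%) and 3 (15%) of them higher in flox iWAT, beside 16.5% of all pairs. The 2 ribosomal calls of 74 (2.70%, beside 1.68% of all pairs) lay over 200 kb from Rps24, in favour of flox iWAT (-1.99 ± 0.23 and -2.32 ± 0.59). Smarcd1, the gene flanked by loxP sites, had 55.3, 57.1 and 47.7 in BAT and 67.5, 51.9 and 58.1 in iWAT at its start site, values that overlapped (-0.18 ± 0.20).

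**Figure D3:**
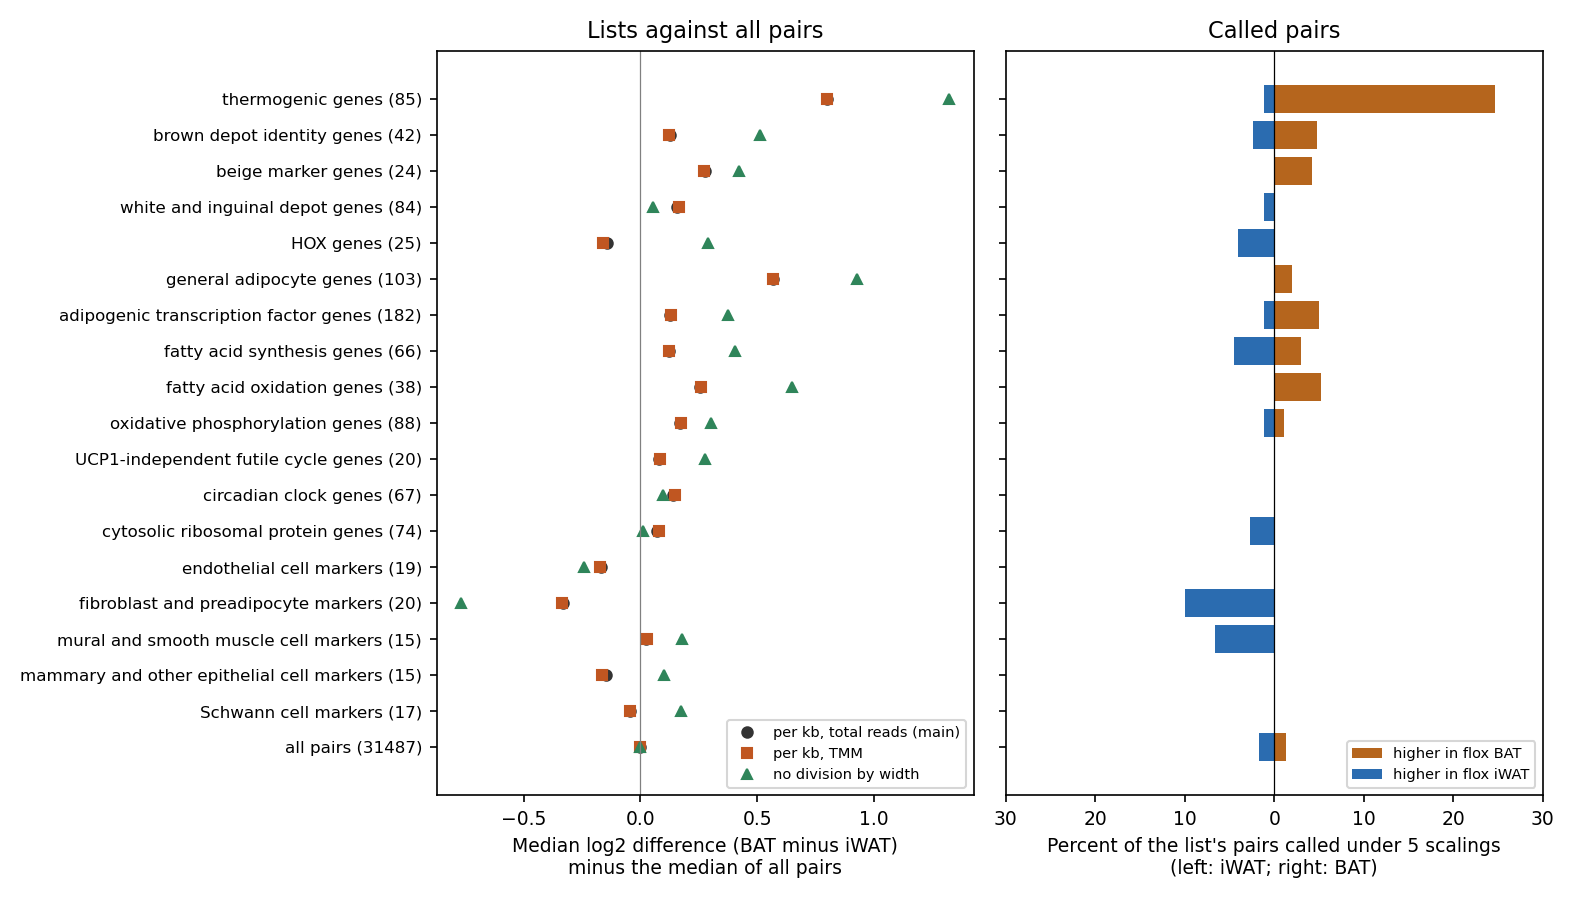
For each gene list with at least 15 pairs (number in brackets), the left panel plots its median log2 difference minus that of all pairs under 3 scalings, and the right panel the percentage of its pairs called under 5 scalings, brown to the right and inguinal to the left. The thermogenic list stands at 24.7% on the brown side. The fibroblast and preadipocyte list and the endothelial list both lie left of 0 under the 3 scalings plotted.

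Some loci held several pairs of 1 direction. Pairs higher in flox BAT lay at Gtf2ird1, a transcription factor gene (3 of 8 pairs), and Zdhhc19, a palmitoyltransferase gene (3 of 6). These came besides those of Nfia, Pdk4, Ppargc1b, Dio2 and A530050N04Rik. The strongest Gtf2ird1 pair, in an intron, gave 120, 128 and 111 in BAT and 35.3, 32.9 and 38.3 in iWAT (1.72 ± 0.18). Pairs higher in flox iWAT lay at Chsy1, the chondroitin synthase (3 of 6 pairs), Med13l, a Mediator subunit (3 of 17), and Trerf1 (3 of 4). Col18a1 held both directions. Its intronic pair with the AP-1 letters printed above gave 8.97, 16.3 and 15.4 in BAT and 57.9, 60.3 and 48.0 in iWAT (-1.99 ± 0.36), 2 upstream pairs were also higher in iWAT (-1.91 ± 0.22 and -1.50 ± 0.25), and a pair at -14437 bp gave 115, 109 and 117 in BAT against 48.9, 55.7 and 60.4 (1.04 ± 0.17). These loci were picked for their number of calls, after the values were seen, and pairs of 1 locus are not independent.

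The letters of the distal windows differed with the direction of the pairs. The 200 bp windows centred on each overlap were searched on both strands for 42 consensus patterns, and the 8 shown were chosen after the values were seen. TGACTCA, the AP-1 consensus, was in 6.66% of all 20128 distal windows, in 2.07% of the 387 that were higher in flox BAT (95% Wilson interval 1.05 to 4.03) and in 18.8% of the 394 that were higher in flox iWAT (15.2 to 22.9). AAGGTCA went the other way, with 4.82% of all windows, 9.30% of the brown windows (6.80 to 12.6) and 2.03% of the inguinal windows (1.03 to 3.96). The PPAR response element, a repeat of AGGTCA spaced by 1 base and searched with up to 2 mismatches, was in 4.89%, 8.79% and 3.55%, and its letters overlap those of the half-site. EBF sites (TCCCNNGGGA) were in 1.74% of all windows, 3.36% of brown windows and 0.508% of inguinal windows, and ETS sites (AGGAAGTG) in 2.36%, 0.775% and 6.09%. The KLF consensus GGGTGTGG was in 5.08% of inguinal windows and 2.07% of brown windows, beside 2.54% of all.

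C/EBP sites (TTGCNNAA), at 13.8% of all windows, 11.6% of brown and 12.2% of inguinal windows, had intervals that overlapped in the 3 sets. The NF1 half-site TTGGCA was in 22.2%, 22.7% and 14.7%. The intervals cover counting error over windows and not the spread of mice, and a match is a run of letters and no measure of binding. Of the windows printed above, those of Ppara, Slc16a1 and Pparg belong to the brown set, with densities of 87.4, 91.6 and 90.9 in BAT and 17.2, 32.3 and 30.4 in iWAT at Slc16a1 (1.78 ± 0.17). Those of Slc41a3, Gfpt2, Col18a1 and Ebf2 belong to the inguinal set, with 7.77, 11.7 and 14.3 in BAT and 50.5, 60.4 and 51.2 in iWAT at Gfpt2 (-2.18 ± 0.34). The Atp5g3 window is at a start site and is not counted among the distal windows.

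**Figure D4:**
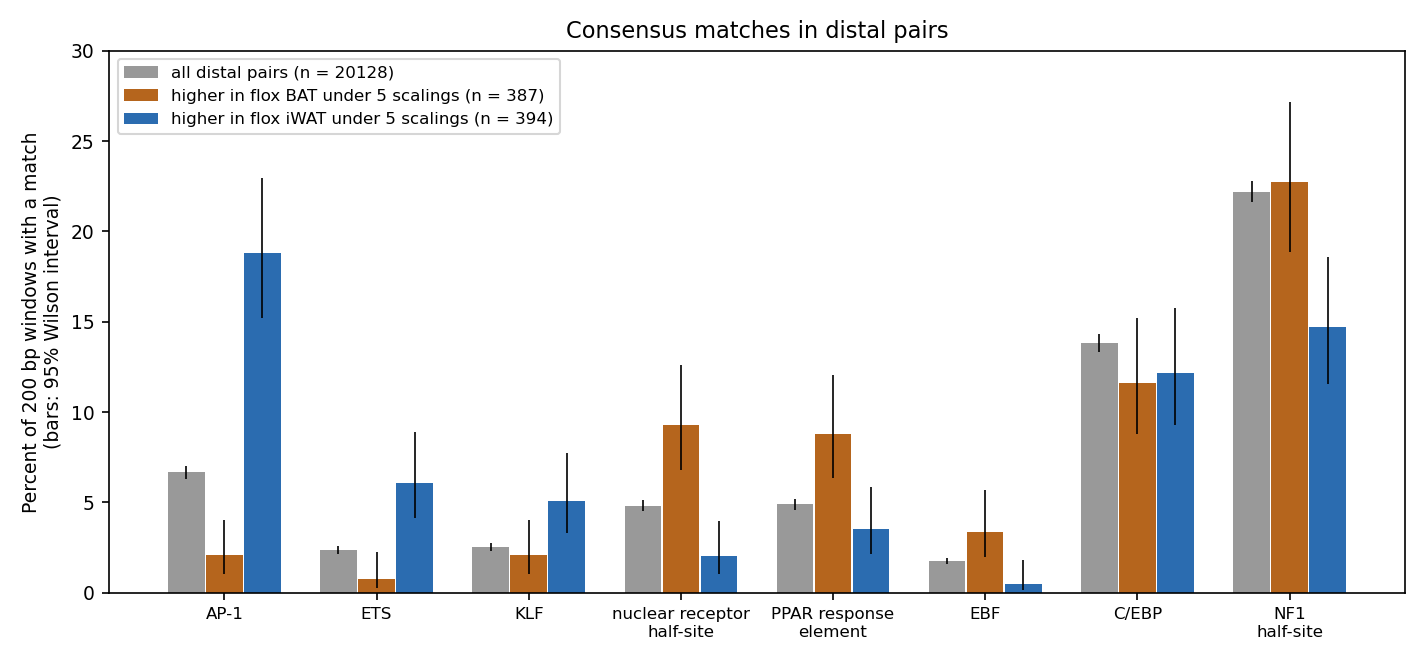
Percentage of 200 bp windows of distal pairs that hold each of 8 consensus patterns, for all distal pairs (n = 20128) and for those higher in flox BAT (n = 387) or flox iWAT (n = 394) under 5 scalings, with 95% Wilson intervals. AP-1 stands at 18.8% of inguinal and 2.07% of brown windows, and the nuclear receptor half-site goes the other way, at 2.03% and 9.30%.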

How the data were processed

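ATAC-seq was read from the deposited tables of 58558 BAT peaks and 39558 iWAT peaks. Per the study's methods and labels, the authors mapped reads to mm10 with BWA (0.7.17-r1188), removed duplicates with Picard (2.8.14), called peaks with MACS2 (2.1.1.20160309), kept those called in at least 2 of 3 replicates of either genotype, and counted reads with bedtools (2.27.1). The knockout samples therefore helped set the peak boundaries, and their columns were not used here. The signal values deposited by the authors are reads divided by a DESeq2 (1.20.0) size factor per sample, and the division by the smallest step of each column returned whole reads. The log2 fold changes, p-values and test scores that the authors deposited come from their DESeq2 fit of genotypes and were not used. For iWAT the labels and the study's methods name different sequencers, and the methods trim longer reads to the 38 bp of the labels. The labels give 50000 nuclei per reaction and the methods another number.

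Reads were divided by the width of each tissue's own peak and by the reads in paired peaks. The 3 iWAT aliquots were summed to 1 sample. All 31487 pairs were fitted together with limma (3.58.1, R 4.3.3) on log2(density + 1), two-sided, with Benjamini-Hochberg adjustment, and the minimum mean density of 5 removed none. The fit was tested on simulated data. Pairing by replicate number was not used, since an aliquot of the pool matches no single mouse. The deviations of same-numbered samples had correlations of 0.120, -0.0006 and 0.0546. Gene, feature and start site come from the tables' annotation and GENCODE, and windows from GRCm38. Other scalings, tests (edgeR 4.0.16, DESeq2 1.42.0), pseudocounts, overlaps, folds and left-out samples were tried.

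Named genes are, in each direction, the 10 with the largest called difference without overlap, the 3 with the smallest p in the leading direction of each list and 1 in the other, and the genes named by the study for its ATAC-seq data. Pairs called under 5 scalings were named in the same way, and a few others are said to have been chosen after their values were seen. One gene that the rule names is not reported here. The members, lists and rules were chosen with earlier results of these data known. Annotation of a pair with the nearest gene does not show that it regulates that gene.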

Additional observations from a re-analysis of the deposited data

How the results depend on the processing

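Over total reads 474 pairs were called higher in flox BAT and 5202 in flox iWAT, with a median of -0.50. The counts and the median were 1874, 1140 and -0.017 with TMM, 1889, 1174 and -0.016 with DESeq2 size factors, 2036, 1281 and -0.049 with quantile scaling, and 3842, 3838 and -0.128 without division by width. With TMM and no division by width they were 4527, 3302 and -0.013. Among pairs of like width and 50% overlap with TMM, 12937 in number, the calls were 422 brown and 230 inguinal, more on the brown side, and the median was -0.0066. An overlap of 50% gave 2033 inguinal calls and a median of -0.353, and a pseudocount of 5 a median of -0.447. No minimum fold gave 1670 and 12653 calls, and a 4-fold minimum 9 and 197. The 3 aliquots taken as samples gave 523 and 5585, edgeR 547 and 5701, and DESeq2 543 and 5223. The replicate block gave 524 and 5589, and no called count moved by over 1.5 times with it.

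Every mouse lay above every aliquot in 2945 pairs and below in 17976. These counts were 8535 and 7456 with TMM, 8289 and 7670 with size factors, 7670 and 8745 with quantile scaling, and 8858 and 11680 without division by width. The second was 11770 at 50% overlap. Leaving out 1 sample gave 0 to 582 brown and 0 to 6659 inguinal calls, 0 to 500 and 0 to 775 calls under 5 scalings, medians of -0.509 to -0.474, and 3249 to 3620 and 18737 to 19972 pairs without overlap. The zeros all came from leaving out the second BAT mouse, where limma gave a smallest adjusted p of 0.121, with 477 brown and 5246 inguinal differences of at least 2-fold at an unadjusted p under 0.05.

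With a promoter window of 5000 bp, 0.436% of promoter pairs were called higher in flox BAT. With one of 100 bp, 12.1% of promoter pairs were higher in flox iWAT, and 1.73% and 17.2% of distal pairs were higher in flox BAT and flox iWAT. AP-1 matches in distal windows called higher in flox iWAT over total reads went from 9.81% to 5.34% in windows of 100 bp, 15.3% in windows of 400 bp and 18.8% for calls under 5 scalings. Half-site matches in brown windows went from 9.53% to 5.32% and 17.1%.

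Without division by peak width 28 named pairs turned, by construction where the widths differ. The values became 2.15 at Srebf2, 2.32 at Gpr158, 3.76 at 9530026P05Rik, 1.66 at Ybx1, 2.85 at Fam159b, 2.00 at Traf3ip2, 2.29 at Gatsl2, 2.30 at Prom1, 2.05 at 1700065J18Rik, 1.71 at Pdk4, 0.36 at Ebf3, 1.28 at Ebf2, 0.42 at Mtus1, 3.65 at Hoxb3, 1.41 at Hoxc4, 0.16 at Hoxb1, -3.10 at Hoxc6, -0.28 at Dgat1, 0.28 at Klf4, 1.29 at Atp2a2, 3.01 at Dbp, 0.13 at Rora, 0.70 at Cdh5, -1.08 at Col1a1, 0.25 at Mc2r, 2.34 at Dgat2, 3.03 at Dgat2 and 0.50 at Cfd. The depth of the iWAT aliquots, at 3904723 reads in the shallowest, limits pairs of low density. The cause of the other moves was not tested.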

Other observations

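Of the 6 pairs assigned to Fos, which encodes a subunit of AP-1, 2 were higher in flox iWAT under 5 scalings. They were chosen after their values were seen. At 48952 bp from the Fos start site the density was 7.77, 8.43 and 13.9 in BAT and 31.2, 41.0 and 54.0 in iWAT (log2 difference -1.98 ± 0.34, SE). At 59195 bp it was 9.08, 12.8 and 14.1 against 42.3, 32.3 and 38.1 (-1.62 ± 0.28). Car3, the carbonic anhydrase of fat and muscle, spread widely among the flox BAT mice at 9644 bp, with 35, 67.9 and 154 against 102, 59.8 and 104 in iWAT, and showed no difference past the test (-0.35 ± 0.78). Ifi27l2a, an interferon-induced gene, had 18.4, 28.9 and 24.8 in BAT and 52.8, 42.2 and 58.2 in iWAT at its start site, a difference called over total reads (-1.10 ± 0.28) but not after TMM (-0.62). Mc2r, the ACTH receptor, had values that overlapped at its start site (31.1, 36.3 and 41.8 in BAT, 43.1, 24.7 and 50.4 in iWAT).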
